A study of Mus musculus with 2 samples.

Results

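The regions described here are 1916 stretches of the mouse genome, far from gene starts, where DNase-seq of embryonic liver gave a peak in replicate 1 and none in replicate 2. The members were selected on the measured values themselves. The longer peak lists of both libraries were merged wherever peaks overlapped by at least 1 bp, which gave 99252 regions, and 28168 of these held peaks of replicate 1 only. Of those, 23125 lay more than 1 kb from every start of a protein-coding transcript and are called distal. The 1916 members had a deposited replicate 1 peak value of 1.0 or more, and the other 21209 fell under that threshold. Among all 16602 distal regions with a replicate 1 value of 1.0 or more, the members made up 11.5% and the other 14686 were shared with replicate 2. Absence of a replicate 2 peak and the height in replicate 1 therefore define the members and are not findings.

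DNase I cuts DNA where it is not wrapped tightly around nucleosomes, so a pile-up of cuts marks an accessible regulatory element. A footprint is a short run of protected bases inside such an element, which a bound protein can leave. Distal elements are mostly enhancers and insulators. In red cell precursors many enhancers are bound by GATA1 together with TAL1, an E-box binding protein, and KLF1, whereas CTCF binds insulators in nearly every cell type. The fetal liver is the main site of red cell formation in the embryo at this stage and also holds hepatoblasts, macrophages, endothelial cells and megakaryocytes.

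Both libraries came from liver of embryos aged 13.5 days, of a mixed C57BL/6N,129 background, labelled as wild type but carrying several copies of a yeast artificial chromosome, the A85 YAC. The sources used here do not say what it carries, so reads from it that fit a mouse position cannot be told apart from those of the mouse. The labels call the libraries biological replicates 1 and 2 of the same tissue, give them the same donor label, record sex as not collected and say nothing of pooling of embryos. There is thus 1 group of 2 libraries and no treatment or control, and a difference between the libraries cannot be told apart from a difference between the tissue samples. Tissue was checked at promoters of marker genes fixed for it. Promoter peaks in both libraries were found at 8 of 9 erythroid markers, 3 of 7 hepatoblast, 2 of 4 megakaryocyte, 3 of 5 stellate and mesenchymal, 1 of 5 macrophage, 1 of 5 endothelial and 2 of 4 neural markers. Hepatoblast promoter peaks were found for 4 markers in replicate 1 and 6 in replicate 2, and macrophage ones for 3 and 1. The part of cell composition in the results below was not tested.

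Peak values rose in equal steps, of 0.0127 in replicate 1 and 0.00604 in replicate 2, and 100% of values were whole multiples within 0.05 of a step. Each value was therefore read as a count of such steps, with a 95% Poisson interval for counting error only. The median peak stood at 69 counts in replicate 1 and 126 in replicate 2, and the longer lists held 76130 and 73852 peaks. The median listed peak thus had more counts in replicate 2. These medians are over listed peaks and do not give the depth at the member regions. The part of depth in the results below was not tested.

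Sequences of 8 members are shown as examples, and their choice does not measure how common their letters are in the set. They are reference bases of mm10, plus strand, written 5′ to 3′, and capitals mark bases inside replicate 1 footprints. The first 3 are the members of highest value with a replicate 1 footprint and no repeated 31-base word. They lie at chr4:133910661-133910880 (nearest protein-coding gene Rps6ka1), chr12:110992121-110992340 (Ankrd9) and chr6:47778481-47778680 (Pdia4), all intergenic, and each also held replicate 2 footprints. The fourth, at chr17:83659041-83659220 (Kcng3), is the highest outside exons with no replicate 2 stretch under the FDR ceiling. The remaining 4 were added after their values were seen. They lie in introns of Fbxo7 (chr10:86026441-86026660), Hspbap1 (chr16:35807401-35807620) and Nprl3 (chr11:32265161-32265400, beside the alpha-globin genes), and between genes upstream of the beta-globin genes, nearest to Olfr66 (chr7:103877181-103877400).
Rps6ka1 region: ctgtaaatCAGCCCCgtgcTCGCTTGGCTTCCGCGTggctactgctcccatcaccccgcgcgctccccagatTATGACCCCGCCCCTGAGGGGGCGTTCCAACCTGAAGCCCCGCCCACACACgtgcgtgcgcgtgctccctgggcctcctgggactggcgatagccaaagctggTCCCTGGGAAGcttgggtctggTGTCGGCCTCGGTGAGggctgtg
Ankrd9 region: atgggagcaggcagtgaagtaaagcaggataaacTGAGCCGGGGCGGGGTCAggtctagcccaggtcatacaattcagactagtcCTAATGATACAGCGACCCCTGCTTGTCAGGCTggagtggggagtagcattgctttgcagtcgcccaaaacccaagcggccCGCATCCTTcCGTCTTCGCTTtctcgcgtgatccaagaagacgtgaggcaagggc
Pdia4 region: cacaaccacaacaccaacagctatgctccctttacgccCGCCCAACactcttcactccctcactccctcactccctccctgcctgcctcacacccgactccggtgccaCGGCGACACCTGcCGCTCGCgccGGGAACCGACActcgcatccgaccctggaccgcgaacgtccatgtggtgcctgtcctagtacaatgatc
Kcng3 region: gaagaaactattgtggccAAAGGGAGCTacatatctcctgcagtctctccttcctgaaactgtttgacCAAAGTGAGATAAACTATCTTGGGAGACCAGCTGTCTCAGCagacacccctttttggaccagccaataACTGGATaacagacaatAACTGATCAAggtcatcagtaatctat
Fbxo7 region: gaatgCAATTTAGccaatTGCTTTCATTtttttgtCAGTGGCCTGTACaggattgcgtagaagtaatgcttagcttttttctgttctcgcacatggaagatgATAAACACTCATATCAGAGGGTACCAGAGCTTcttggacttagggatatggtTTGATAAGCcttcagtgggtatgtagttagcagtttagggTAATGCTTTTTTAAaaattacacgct
Hspbap1 region: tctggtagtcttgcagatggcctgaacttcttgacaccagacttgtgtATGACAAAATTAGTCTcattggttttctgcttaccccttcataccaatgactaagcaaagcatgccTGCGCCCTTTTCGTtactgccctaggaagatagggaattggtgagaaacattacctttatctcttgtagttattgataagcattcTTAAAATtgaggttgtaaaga
Nprl3 region: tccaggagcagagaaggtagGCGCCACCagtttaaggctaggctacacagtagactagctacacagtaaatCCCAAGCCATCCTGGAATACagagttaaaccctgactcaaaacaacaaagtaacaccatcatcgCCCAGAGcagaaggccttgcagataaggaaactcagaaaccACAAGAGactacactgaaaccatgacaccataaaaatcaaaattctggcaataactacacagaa
Olfr66 region: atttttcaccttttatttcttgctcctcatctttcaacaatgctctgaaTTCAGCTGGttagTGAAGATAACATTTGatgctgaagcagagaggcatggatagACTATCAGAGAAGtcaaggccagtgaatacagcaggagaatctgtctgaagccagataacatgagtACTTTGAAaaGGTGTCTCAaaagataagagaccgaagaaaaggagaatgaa

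Among these picked examples, the letters differed between the first 3 regions and the rest. AGATAA or TGATAA, the core that GATA factors recognise, was absent on both strands from the Rps6ka1, Ankrd9 and Pdia4 regions. In the Kcng3 region AGATAA lay at bases 76 to 81, counted from the region's first base, in the same footprint as the E-box CAGCTG at bases 97 to 102. The Fbxo7 region held TGATAA at bases 101 to 106 and 156 to 161, and both touched footprints. In the Olfr66 region AGATAA occurred at bases 66 to 71, 157 to 162 and 191 to 196, and the first of these touched a footprint and stood downstream of CAGCTG. The Hspbap1 region held 2 GATA cores and the Nprl3 region 1, none of them in a replicate 1 footprint. Over all 1615 members without a replicate 2 stretch, the central 200 bp held a core in 59.4%, so many had none. Among members with every base under that ceiling, 22.2% held one.

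Replicate 1 values of the members ran from 1.01, which is 80 counts (95% Poisson interval of the value 0.803 to 1.26), to 9.21, which is 728 counts (8.56 to 9.91). The median member had 99 counts (1.02 to 1.53 as a value), and the quartiles of the value were 1.1 and 1.52. Most members were therefore moderate peaks close to the threshold. Shared distal regions over the same threshold had a median replicate 1 value of 1.82. Just inside the threshold lay the regions nearest to Vil1, B3gnt7 and Inpp5d, each at 1.01 with 80 counts. Just outside it lay those nearest to Prim2, Ube2f and Il10, each at 79 counts and a value that rounds to 1.0. Within counting error these 6 cannot be ordered.

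The share of distal regions that replicate 1 had alone was smaller at each higher class of its value. The range from 1.0 to 1.5 was split evenly into 2 classes. The share was 24.7% (95% Wilson interval 23.3 to 26) in the lower, 17.0% (15.6 to 18.4) in the upper and 10.1% (9.12 to 11.1) at 1.5 to 2. It was 3.52% (2.94 to 4.22) at 2 to 3 and 1.18% (0.866 to 1.6) at 3 and over, the last being 40 of 3395 regions. These intervals count regions of 1 pair of libraries, which are not replicates, and no difference between sets of regions was tested here or below. The converse set, distal regions of replicate 2 alone with a replicate 2 value of 1.0 or more, numbered 376. Without a value threshold, 17283 distal regions held peaks of replicate 2 only, against 23125 for replicate 1. The threshold of 1.0 need not be equally strict in both libraries, because how the values were normalized is not stated. The sizes of the 376 and the 1916 were therefore not compared. In bulk tissue a lower signal can come from fewer cells with the element open or from less cutting per cell, and these cannot be told apart.

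**Figure D1:**
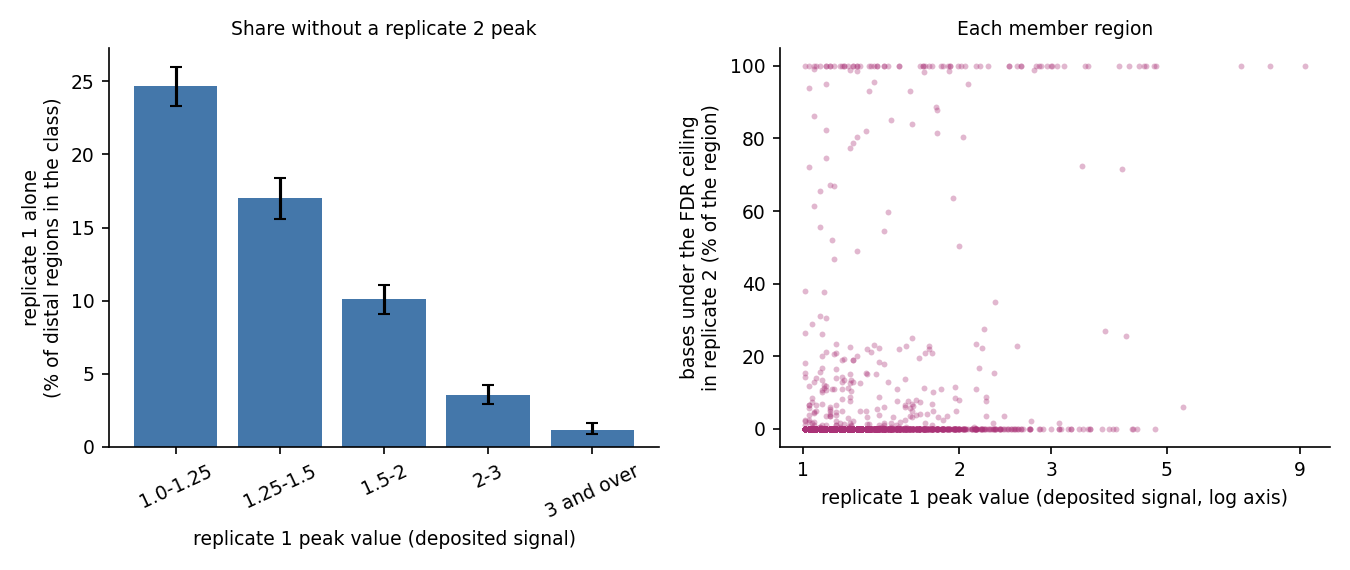
Left, share of distal regions held by replicate 1 alone (% of all distal regions in the class) by replicate 1 peak value, with bars as 95% Wilson intervals. The share goes from 24.7% in the lowest class to 1.18% in the highest. Right, each of the 1916 members as a point, with its replicate 1 value on a log axis against the share of its bases with a replicate 2 FDR under 0.05. Most points lie at 0, and the 3 highest values lie at 100%.

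The deposited per-base false discovery rates (FDR) of replicate 2 describe these regions below the level at which a peak was listed. They cover stretches of bases with an FDR under 0.05. Peaks and FDR values were derived from the same alignment of a library. Regions chosen for lacking a replicate 2 peak are therefore not independent of these stretches, and the shares below only describe them. No such stretch touched 1615 of the 1916 members (84.3%, 82.6 to 85.9). The other 301 members (15.7%, 14.1 to 17.4) held at least 1 base under the ceiling, 119 (6.21%) a base under 0.01 and 99 (5.17%) a base under 0.001. In replicate 1, 86.6% of the members held a base under 0.001. All 14686 shared distal regions held a replicate 2 stretch, and 86.5% of them a base under 0.001. Where members had stretches, these covered a median of 34 bases.

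Around the centre of the replicate 1 peak, the share of members with a replicate 2 FDR under 0.05 was flat. It stood at 6.78% at the centre, 6.68% at 250 bp upstream, 5.58% at 1000 bp upstream and 5.22% at 1000 bp downstream. In replicate 1 the same share was 100% at the centre and 6.47% and 5.74% at the same outer distances. Shared distal regions had 97.9% at the centre in replicate 2, with 10% and 10.3% at 1000 bp. At the members' centres the replicate 2 share thus lay within the range of the 1000 bp around them.

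**Figure D2:**
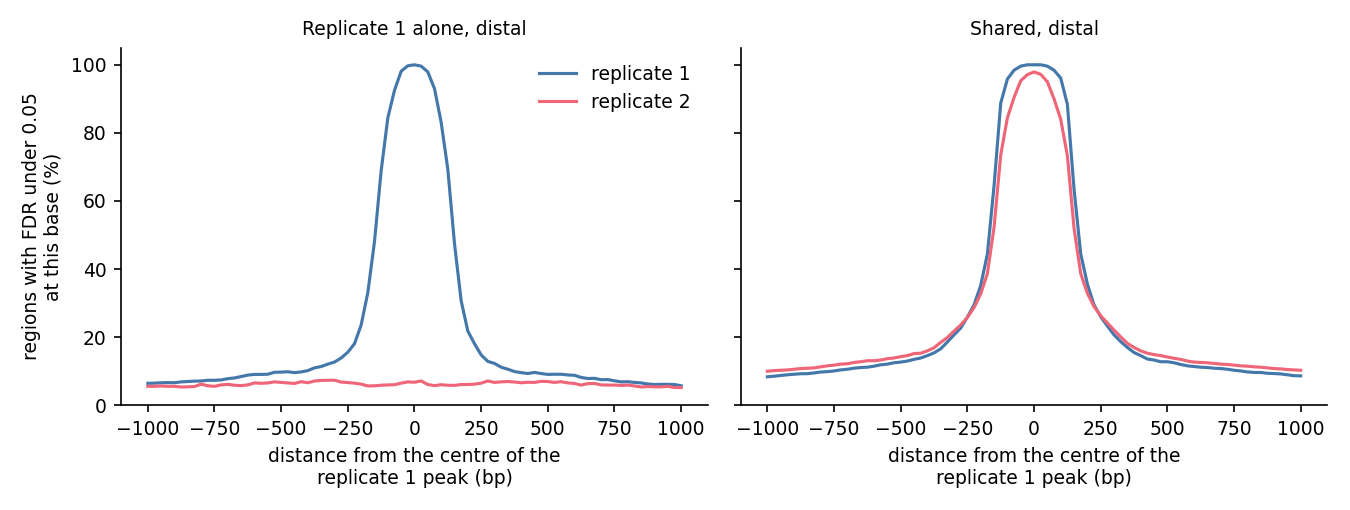
Share of regions (%) with an FDR under 0.05 at each distance (bp) from the centre of the replicate 1 peak, for members (left) and shared distal regions with a replicate 1 value of 1.0 or more (right), 1 line per replicate. In members the replicate 2 line stays between 5.22% and 7.36%, whereas in shared regions it reaches 97.9%.

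The members fell into 3 kinds by replicate 2 stretches, a split made after seeing the data. In 1615 members without a stretch, the median value was 1.23, the median GC share 46.7% and the nearest replicate 2 peak a median of 4200 bp away. In 229 members covered in part, these were 1.27, 48.2% and 1240 bp. In 72 members (3.76%, 2.99 to 4.71) every base lay under the ceiling in replicate 2, and these were 1.8, 53.0% and 60 bp. Of those 72, 60 (83.3%, 73.1 to 90.2) had a replicate 2 peak within 200 bp, against 100 of the 1615 without a stretch (6.19%). A replicate 2 peak within 200 bp was thus more frequent among the 72 than among the 1615, of which 348 (21.5%) had one within 1 kb. Over all members, 227 (11.8%) had a replicate 2 peak within 200 bp and 526 (27.5%) within 1 kb. Of 123 members with a stretch but no replicate 2 peak within 1 kb, 0 held a base with an FDR under 0.001 (95% Wilson interval 0 to 3.03%). Among members with a stretch and a replicate 2 peak within 200 bp, 77 of 127 did. Peaks and FDR values come from the same library, so these shares are not independent of the grouping by distance.

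The highest members were mostly of that fully covered kind. The region nearest to Rps6ka1, a ribosomal S6 kinase gene, had a value of 9.21, 5 footprints in each replicate, and a replicate 2 peak 60 bp away. The region near Ankrd9, which encodes an ankyrin repeat protein, had a value of 7.9 (624 counts) and a replicate 2 peak 40 bp away. The region near Pdia4, a protein disulfide isomerase gene, had 6.95 (549 counts) and a replicate 2 peak 20 bp away. All 220, 220 and 200 bases of these 3 lay under the FDR ceiling in replicate 2. These regions were accessible in both libraries by that measure, although they count as replicate 1 alone by peak overlap.

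Among the 10 highest members, 5 more had the same form. They were nearest to Kmt2e (4.76), a SET-domain protein gene, Ldlrad4 (4.73), an inhibitor of TGF-beta signalling, Arid1b (4.56), a subunit of the BAF remodelling complex, Zfp692 (4.53), a zinc finger gene, and Foxk1 (4.43), a forkhead factor. Each was wholly under the ceiling in replicate 2, with a replicate 2 peak 40 to 80 bp away. The other 2 went the other way. The region 10882 bp from a start of Ppid, a cyclophilin gene, had a value of 5.38 (425 counts), 7 replicate 1 footprints, no replicate 2 footprint and only 12 of its 200 bases under the ceiling. The region at chr3:116694401-116694600, in an exon of Slc35a3, a Golgi nucleotide-sugar transporter gene, had 4.75 (375 counts), 6 replicate 1 footprints and no base under the ceiling. Those 2 regions each held 2 GATA cores in their central 200 bp, as did the fully covered Ldlrad4 region, while the other 7 of the 10 held none.

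In 5 members, a peak of the shorter replicate 2 list overlapped although no peak of the longer list did. Among them were regions in Tex14 (4.23) and Sh3pxd2a (2.62) and nearest to Rnf213 (1.13) and Podxl (1.11). The 2 lists of a library thus place some peak borders differently, and for these 5 the absence of a replicate 2 peak holds only for the longer list. The shorter replicate 1 list overlapped 1607 of the 1916 members (83.9%), against 96.3% of shared distal regions. At replicate 1 values under 2, these shares were 82.6% and 93.6%.

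Footprints followed the same division. At least 1 replicate 1 footprint touched 1744 members (91.0%, 89.7 to 92.2), with a median of 2 per region, against 96.8% of shared distal regions. A replicate 2 footprint touched 69 members (3.6%, 2.86 to 4.53), against 97.3% of shared distal regions. Both replicates had a footprint in 49 members (2.56%), and neither in 152 (7.93%). Every one of the 69 lay in a member with a replicate 2 stretch, and 44 of them in the 72 fully covered regions. The authors' notes state that a library's footprints were derived from its own FDR values, so the absence of replicate 2 footprints is not independent of the absence of stretches.

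Members lay in introns more often than shared distal regions did. Of the 1916, 1016 were intronic (53.0%, 50.8 to 55.3), 799 intergenic (41.7%, 39.5 to 43.9) and 101 exonic (5.27%, 4.36 to 6.36). The shared distal shares were 40.1%, 50.8% and 9.1%. The 72 fully covered members went the other way, with 66.7% intergenic (55.2 to 76.5) and 29.2% intronic. Of the 101 exonic members, 34 touched coding sequence and 67 did not. Within 1 kb of a start of a long non-coding RNA lay 36 members (1.88%), against 4.44% of shared distal regions.

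Members had a median width of 200 bp, against 220 bp for shared distal regions, which merge peaks of both libraries. They lay a median of 9800 bp from the nearest protein-coding start, against 10800 bp for shared regions. The GC share of members was lower, with a median of 47.0% against 52.3% in shared distal regions and 54.8% in regions of replicate 2 alone. Among shared regions with a replicate 1 value under 2, closest to the members in height, it was 51.5%. The share of distal regions that replicate 1 had alone was 36.9% (34.7 to 39.2) at GC shares under 45%, 15.3% at 45 to 50%, 7.37% at 50 to 55% and 3.97% (3.46 to 4.55) above. Base composition thus moved with membership, and the part of any GC-dependent difference between the libraries was not tested. Only unique 31-base words were found in 84.2% of members and 84.5% of shared regions. Bases masked as repeats in the reference made up a median of 9.5% of a member against 6.36% of a shared region, and exceeded 50% in 7.62% of members (6.52 to 8.89) against 5.54% (5.18 to 5.92).

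The GATA core had the widest gap in percentage points between members and shared distal regions among the 21 motifs searched. Windows of 200 bp centred on the peak were searched on both strands, and a match is a description of letters, not a binding site. AGATAA or TGATAA occurred in 1102 member windows (57.5%, 55.3 to 59.7). It occurred in 31.1% of shared distal windows (30.4 to 31.9), in 27.6% of those with values under 2, in 11.7% of windows of replicate 2 alone (8.83 to 15.3) and in 18.9% of windows 2 kb beside the members. Members held 1 core in 738 windows, 2 in 308 and 3 or more in 56. A composite of CTG, then 7 to 9 bases of any kind, then AGATAA, about the spacing at which TAL1 and GATA1 are known to bind together, always overlaps a GATA core. It occurred in 222 member windows (11.6%, 10.2 to 13.1), 5.71% of shared windows, 0.532% of windows of replicate 2 alone and 0.835% of the neighbouring windows.

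CTCF and SP letters were less frequent in members than in shared regions. The CTCF core (CCA, any pair of bases, AG, any pair, GGC) was in 164 member windows (8.56%, 7.39 to 9.9) and in 24.9% of shared windows (24.2 to 25.6). It was in 9.31% (6.77 to 12.7) of windows of replicate 2 alone, so regions of either replicate alone held it at a similar share. GGGCGG, the SP core, was in 5.85% of member windows (4.88 to 6.99), 15.2% of shared windows and 18.1% of windows of replicate 2 alone. TGTGGT, the RUNX core, was in 23.2% (21.4 to 25.2) against 17.7%. The E-box forms CAGCTG and CAGATG were nearly level, at 31.3% and 30.3%, as were the KLF forms CCACACCC and CCCCACCC, at 10% and 11.5%. KLF and E-box letters thus did not mark members out, whereas GATA letters did.

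**Figure D3:**
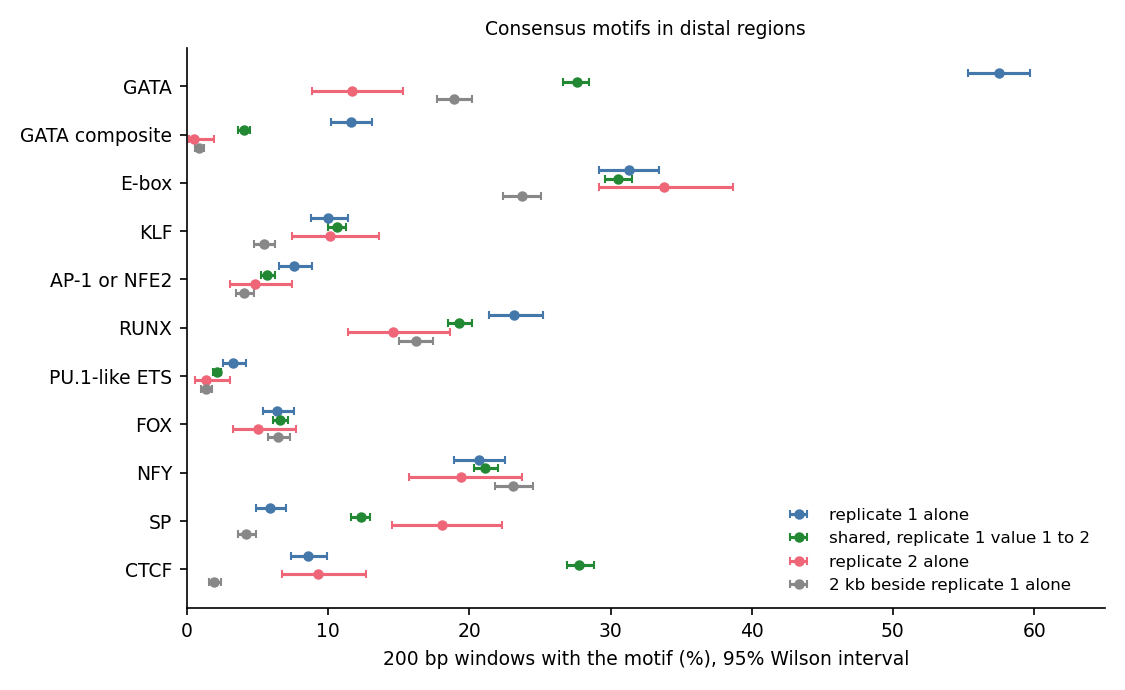
Share of 200 bp windows (%) that hold each motif on either strand, with 95% Wilson intervals, in members, shared distal regions with a replicate 1 value of 1 to 2, distal regions of replicate 2 alone and windows 2 kb beside the members. GATA stands at 57.5% in members and 27.6% in the shared regions, and CTCF at 8.56% and 27.8%.

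The same counts can be read by letters instead of by membership, which adds no independent support. Replicate 1 alone made up 7.45% (6.97 to 7.95) of distal regions without a GATA core, 18.1% (16.9 to 19.3) of those with 1, 22.9% (20.8 to 25.3) with 2 and 23.1% (18.3 to 28.8) with 3 or more. It made up 20.6% of regions with a GATA core and no CTCF core, and 3.97% of those with CTCF and no GATA. Within each class of GC share, members held GATA more often than shared regions did. The shares were 66.2% against 37.2% under 45% GC, 65.5% against 41.2% at 45 to 50%, 46.8% against 35.7% at 50 to 55%, and 24.7% (19.3 to 31.2) against 17.1% (16.1 to 18.2) above. The difference was smaller at each higher class of GC share.

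GATA letters varied among the members too. They were in 59.4% (57 to 61.8) of windows of members without a replicate 2 stretch, 55% (48.5 to 61.3) of those covered in part and 22.2% (14.2 to 33.1) of the 72 fully covered. By value, 55.3% of members in the lowest class and 70.0% of the 40 members at 3 and over held the core. Shared distal regions had 25.5% and 37.5% in the same classes. GATA cores gathered near the peak centre, with 71.0 per 1000 windows in the 10 bp after it and 12.0 and 13.6 in the outermost 10 bp on either side. They did so in shared distal windows too, with 29.9 against 8.65 and 10.8. Of 1527 GATA cores in member windows, 561 (36.7%, 34.4 to 39.2) touched a replicate 1 footprint, and 2 touched one of replicate 2. The latter number is bounded by the choice of members, since a replicate 2 footprint touched only 69 of them. In shared distal windows 39.4% of GATA cores touched a replicate 1 footprint, and 28.7% in those with values under 2. Composite sites touched a replicate 1 footprint in 60.4% of 230 cases and CTCF cores in 89.2% of 167. In shared distal windows these shares were 70.2% and 95.5%, and 57.8% and 95.3% at values under 2. Footprints of replicate 1 covered 11.5% of the bases of member windows. They covered 18.2% in shared distal windows and 14.5% in those with values under 2.

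Shared distal regions, which the rule left out, showed by how much the libraries differed where both had a peak. The log2 of the replicate 2 value over the replicate 1 value had a median of −0.44 over all 14686. It was −0.93 (quartiles −1.28 and −0.54) in 4567 regions with a GATA core and −0.27 (−0.64 and 0.04) in 10119 without. It was −1.08 in 838 regions with the composite and −0.13 (−0.44 and 0.14) in 3653 with a CTCF core. Among shared regions with a replicate 1 value under 2, the medians were −0.81 with and −0.24 without a GATA core. Shared regions with GATA letters were thus lower in replicate 2 relative to replicate 1 than those without. The peaks of these same 2 libraries split shared regions from members, so this adds no independent support to the shares in members. The comparison was made after seeing the data and rests on 1 pair of libraries, and since the regions were picked on replicate 1 values, an overall median below 0 was not read.

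**Figure D4:**
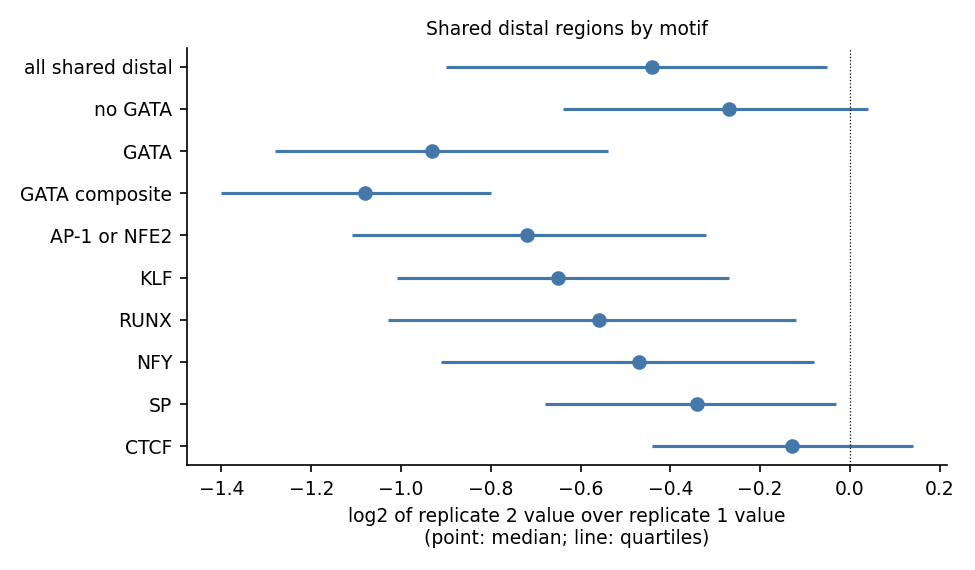
Log2 of the replicate 2 over the replicate 1 peak value in shared distal regions with a replicate 1 value of 1.0 or more, by motif, with points as medians and lines as quartiles over regions. The median is −0.93 with a GATA core and −0.13 with a CTCF core.

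Members were spread over many genes. They had 1518 different nearest protein-coding genes, 1227 of which were nearest to exactly 1 member. The highest number for 1 gene was 7, at Pde4d, a cAMP phosphodiesterase gene. Its members had values of 1.1 to 1.63, 5 of them with a GATA core and all with a replicate 1 footprint. Map3k1, a kinase of the MAP kinase cascade, followed with 6 members of 1.05 to 2.51. Both genes had no member with a replicate 2 stretch. There were 5 members each for Dapp1, a phosphoinositide-binding adaptor (1.15 to 3.11), Arid1b (1.01 to 4.56), Msantd1 (1.06 to 2.25), Hipk2, a nuclear kinase (1.05 to 2.73), St3gal6, a sialyltransferase (1.01 to 1.67), Tmem189 (1.11 to 1.42) and Tgfbr3, a TGF-beta co-receptor (1.08 to 1.38). Rps6ka1 had 4. None of the 5 at Tmem189 had a GATA core, whereas 4 of 5 at Tgfbr3 and at Msantd1 did. Shared distal regions nearest to these genes numbered 11 for Pde4d, 12 for Map3k1, 6 for Dapp1 and 1 for Msantd1. There were 7 each for Arid1b and Rps6ka1, and 3 each for Hipk2, St3gal6, Tmem189 and Tgfbr3. Members made up 11.5% of all distal regions over the threshold.

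Of 21951 protein-coding genes, 3292 (15.0%) had a member within 50 kb of a start, and the median gene had 0. Of distal regions over the threshold near any gene, 11.6% were members. Against these values, 16 gene lists were described by counts alone. Genes of a cluster share regions, and the lists differ in how many shared regions lie nearby. A member within 50 kb of a listed gene can also lie in or nearer to another gene.

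The globin genes stood highest. All 9 had at least 1 member within 50 kb, with a median of 4 per gene, and members made up 11 of the 27 distal regions near them (40.7%, 24.5 to 59.3). They share these regions, since the 9 genes lie in 2 clusters. In the beta-globin cluster, which holds the embryonic gene Hbb-y and the adult genes Hbb-bs and Hbb-bt, 7 members lay at values of 1.56, 1.03, 1.23 and 2.46 nearest to Hbb-bt, 1.82 in Hbb-bs, and 1.32 and 3.28 nearest to Olfr66. The 6 outside Hbb-bs had no replicate 2 stretch, and that in Hbb-bs had 8 bases. The highest, shown above as the Olfr66 region, lay 23965 bp from a start of Hbb-y, held 3 GATA cores, and was 6205 bp from the nearest replicate 2 peak.

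In the alpha-globin cluster 4 members were found. Introns of Nprl3, which are known to house enhancers of the alpha-globin genes, held 2, at 3.76 (297 counts, 3.34 to 4.21) and 1.44. The others lay nearest to Hbq1a (2.54) and Hba-a2 (1.82), where not every 31-base word was unique, so reads could belong to more than 1 copy. None of the 4 had a replicate 2 stretch. The cluster also held 10 shared distal regions within 50 kb of Hba-a1.

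Red cell membrane and receptor genes had members at 9 of 20, with 20 of the 108 distal regions near them (18.5%, 12.3 to 26.9). Ank1, the ankyrin that ties spectrin to the membrane, had 4 intronic members, at 3.08, 1.85, 1.38 and 1.03. That at 3.08 was wholly under the ceiling in replicate 2 and held 3 replicate 2 footprints and no GATA core, while those at 1.85 and 1.38 had no stretch. Epb41, the band 4.1 protein gene, had 4 intronic members at 1.01, 1.61, 2.05 and 1.4, all without a replicate 2 stretch. Sptb, beta-spectrin, had 3 within 50 kb, at 1.67, 1.4 and 1.15, all nearer to starts of other genes.

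Erythroid transcription factor genes had members at 7 of 16, but members made up 12 of the 123 distal regions near them (9.76%, 5.67 to 16.3), close to the 11.6% over all genes. Shared regions were many there, with a median of 5.5 per gene against 1 over all genes. Gfi1b, a transcriptional repressor in the red cell and platelet lineages, had 3 members, at 1.68, 1.58 and 1.48. None of these 3 overlapped the shorter replicate 1 list, and their lowest replicate 1 FDRs were 0.00314, 0.0281 and 0.0267. That at 1.68 lay 19043 bp from a start of Gfi1b, nearer to another gene, and that at 1.48 had no footprint. Sox6, a repressor of embryonic globin, had 3 intronic members at 1.34, 1.2 and 1.51, each with 1 or more GATA cores. Lmo2, the bridging protein of the GATA1 and TAL1 complex, had 2, at 1.19 and 1.4. Zfpm1, which encodes the GATA1 cofactor FOG1, had 1 member within 50 kb, at 2.72, beside 17 shared regions. The Zfpm1 member was not in the shorter replicate 1 list either, with a lowest replicate 1 FDR of 0.00452 and no footprint.

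Heme and iron genes had members at 7 of 18, with 9 of 78 distal regions (11.5%, 6.19 to 20.5). Tfr2, a transferrin receptor, had 2 within 50 kb (1.65 and 1.04), which lay nearer to starts of other genes. Slc11a2, an iron transporter, had 2 (98 and 99 counts). Alad, an enzyme of heme synthesis, had 1 (1.82), 41463 bp away in an intron of another gene. Megakaryocyte genes had members at 9 of 19, with 10 of 47 distal regions (21.3%, 12.0 to 34.9). The integrin gene Itgb3 had 2 in introns (1.04 and 1.27), and Plek, or pleckstrin, 2 (1.09 and 1.35). Treml1 had 1 within 50 kb, at 1.72, which lay 44842 bp away in an intron of another gene.

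For lists of other cell types, members were found near 2 of 26 hepatoblast genes, 2 of 20 lymphoid, 3 of 20 neural, 3 of 16 heart and skeletal muscle, 4 of 23 adult hepatocyte, 4 of 20 macrophage, 4 of 19 housekeeping, 4 of 15 stem and progenitor, 5 of 18 granulocyte and mast cell and 6 of 19 endothelial genes, and near 0 of 20 stellate and mesenchymal genes. As a share of the distal regions near each list, members made up 20.5% for endothelial genes (8 of 39, 10.8 to 35.5), 15.4% for granulocyte and mast cell, 14.3% for macrophage, 13.8% for stem and progenitor, 12.8% for adult hepatocyte and 12.5% for neural genes. They made up 9.38% for heart and skeletal muscle, 8.33% for hepatoblast, 6.94% for housekeeping and 6.06% for lymphoid genes. The first 6 of these shares lay above those of the erythroid transcription factor and the heme and iron lists, and the endothelial one above that of the red cell membrane list. By this measure the red cell lists other than the globins were not set apart. Of the hepatoblast genes, Ahsg, which encodes the plasma protein fetuin-A, had a member within 50 kb at 1.27 with no replicate 2 stretch. That member lay 38237 bp from a start of Ahsg, in an intron of another gene. Kit, the stem cell factor receptor, had an intronic member at 1.43 with 131 of 240 bases under the ceiling and 2 footprints in each replicate. Erg, an ETS factor of endothelium and stem cells, had one at 1.57 with 3 GATA cores and no stretch. With lists of 15 to 26 genes, the Wilson intervals of most lists of other cell types hold the 15.0% of all genes.

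**Figure D5:**
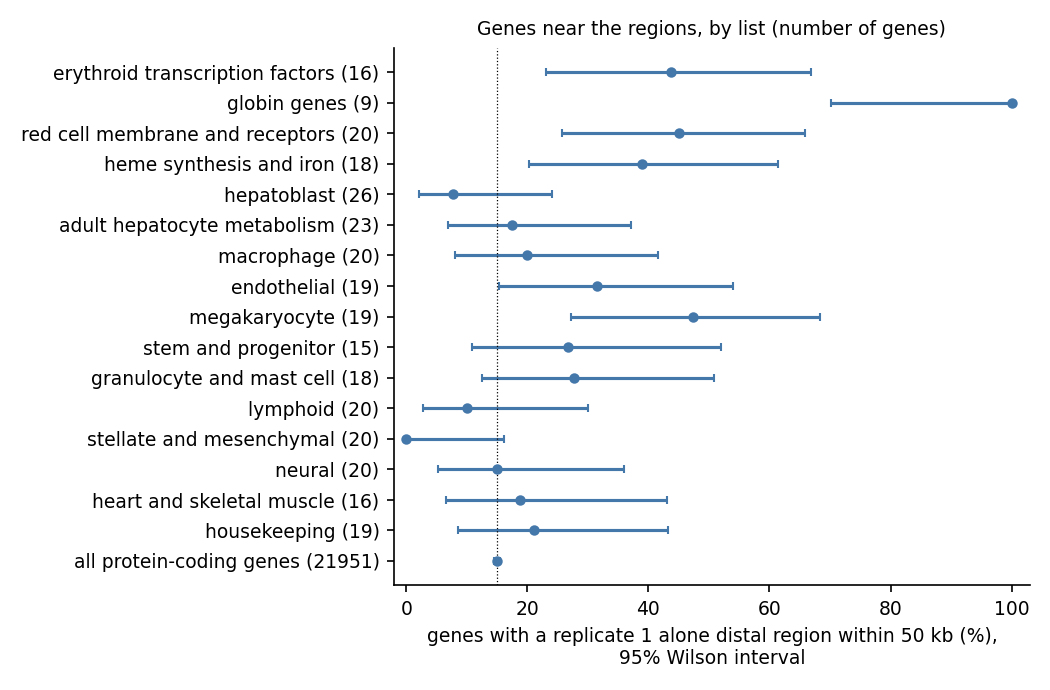
Share of genes (%) in each list with a member within 50 kb of a start, with 95% Wilson intervals and the number of genes in brackets, and the share over all protein-coding genes as a dotted line. The globin list stands at 100% and the line at 15.0%, and genes of a cluster share members.

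Along the genome, members made up 9.04% to 14.2% of the distal regions over the threshold on the autosomes and 15 of 224 (6.7%, 4.1 to 10.8) on the X chromosome. Another member lay within 10 kb of 344 members (18%) and within 50 kb of 771 (40.2%). A shared distal region over the threshold lay within 10 kb of 933 (48.7%, 46.5 to 50.9) and within 50 kb of 1610 (84%).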

How the data were processed

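DNase-seq libraries of embryonic liver, 2 in 1 group, were used as deposited. Per the notes deposited with them, the authors derived peaks, FDR values and footprints from the filtered alignment of each library alone, on mm10. The deposited peak lists hold a signal per peak, whose normalization is not stated. The deposited FDR file gives a false discovery rate (a q-value, treated as a p-value type) per stretch under 0.05, and the deposited footprint lists carry a constant p-value or FDR of 0.01, read as their threshold. Aligner and callers were not given in the sources used here. Members and lists were chosen with earlier results of these data known.

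Peaks were merged, annotated with GENCODE M21 (exon, then intron, then intergenic) and read against GRCm38.p6 with Python 3.11.15, numpy 2.4.6, pandas 2.3.3, scipy 1.17.1 and matplotlib 3.10.9. A region's value is that of its highest peak. Its 31-base words were counted over 66 assembly sequences. Shares carry 95% Wilson intervals and values 95% Poisson intervals, for counting error only. No p-value was computed, since regions are not replicates and the rule uses both libraries. The code for merging, overlaps, distances and Wilson intervals was tested on simulated intervals, and the motif search was not tested in this way. Of 296 listed genes, 1 (H19) did not match.

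Named were the 10 highest members, the 10 genes nearest to most members, up to 3 genes per list with most members within 50 kb, the 5 highest members with a replicate 2 footprint, and 3 regions on either side of the threshold. A gene that this rule picked is not reported here. Zfpm1, Hbq1a, Hba-a2, Hba-a1, Hbb-bt, Nprl3, Olfr66, Fbxo7, Hspbap1, Tex14, Sh3pxd2a, Rnf213 and Podxl were named after their values were seen. The sequence rule picked the Slc35a3 region, and the next one, Kcng3, is printed because exonic sequence was not.

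Alternatives changed the value threshold, the distance to starts, the peak lists, the FDR level, the footprint overlap and the motif window.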

Additional observations from a re-analysis of the deposited data

How the results depend on the processing

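The 1916 members became 4474 at a value of 0.75 or more, 497 at 1.5 or more and 3769 with the shorter lists, and their median value became 0.962 and 1.78 at those values. The share with a GATA core (57.5%) was 50.9% and 61.6% at those values, 55% with distance taken from 5' ends of genes only, 53.8% with the shorter lists and 44.0% in a 100 bp window. The share with a replicate 1 footprint (91.0%) was 84.2%, 94.6%, 88.0% and 92.4% under the first 4 of these, 92.7% without members that had a replicate 2 peak within 200 bp, and 93.4% without those that had a replicate 2 stretch, an alternative added after seeing the data. The share with a replicate 2 footprint (3.6%) was 1.92%, 8.85%, 5.48% and 49.5% under the same 4, and 0.533% without a replicate 2 peak within 200 bp. The share with a replicate 2 stretch (15.7%) was 12.5%, 24.3%, 19.5% and 63.5% under the same 4, 10.3% without such a peak, 6.21% at FDR under 0.01, 5.17% under 0.001 and 10% with 20 bp or more. With the shorter lists, a region with a replicate 2 peak in the longer list alone counts as replicate 1 alone. The intergenic share (41.7%) was 44.5% more than 2.5 kb from starts and 37.4% from 5' ends only, and the exonic share (5.27%) was 8.81% from 5' ends only and 6.45% with the shorter lists. The number of members was 1641 more than 2.5 kb from starts, 2135 from 5' ends only and 1689 without a replicate 2 peak within 200 bp, each within 1.5 times the main number. Every other share or median not given here moved by no more than its interval. Leaving out a replicate was not possible, since both define the members. No paired analysis was possible because there is 1 group. Depth limits single values near 80 counts to about the interval given for the lowest member.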
